A study of Mus musculus with 12 samples.

Results

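Pericytes wrap the endothelium of islet capillaries, and fibroblasts lay down the matrix around vessels and islets. The 10 genes described here (Pdgfrb, Cspg4, Rgs5, Acta2, Tagln, Des, Pdgfra, Dcn, Lum and Thy1) are commonly used to recognise these mesenchymal cells. They were found by matching symbols to the Ensembl identifiers of the count table, which gave 10 of its 52962 genes. All 10 were among the 15598 genes tested, which in 3 samples or more had a CPM above 1, where CPM is the count scaled by the size of the library. Each exceeded that level in all 3 non-β-cell samples at 8 weeks, and Lum did so in only 1 sample outside that group, so the filter itself leans towards the group in which the genes were highest.

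The samples were pancreatic islet cells of female NOD mice, a strain prone to autoimmune diabetes that all 4 groups shared. β- and non-β-cells were each taken at 2 ages, 4 weeks and 8 weeks, which made 4 untreated groups with 3 replicates apiece. Per the study's figure legends, each replicate pooled cells of 3 mice. Its methods and legends state that islets were cultured overnight and dispersed with trypsin. Cells carrying CD45 were depleted, and β- and non-β-cells were separated by their own fluorescence. The pooling is not in the sample labels, so p-values here measure the spread between these samples.

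Total estimated counts ran from 13755106 (non-β-cells at 8 weeks, replicate 2) to 27040652 (β-cells at 8 weeks, replicate 2), so that 1 count equalled 0.0377 to 0.0747 CPM. Both 4-week samples numbered 3 stood apart from the other samples of their group. Chi-square per degree of freedom between β-cell samples at 4 weeks was 89.7 and 97.8 for the pairs with replicate 3 and 27.1 for the other pair. It was 41.5 and 49.9 against 12.5 in non-β-cells at 4 weeks. The fractions carried the markers of their labels. The summed level of 5 α-cell markers was 105870 to 135607 CPM in non-β-cells and 1517 to 9401 CPM in β-cells, and each of 5 β-cell markers was higher in β-cells at both ages. Ptprc, which encodes CD45, had 0 to 16 counts per sample. The 2 tested markers of a leukocyte list, Cd68 and Cd79a, were both higher in β-cells at both ages. Cd68 had 47.5 to 74.1 CPM in β-cells and 7.68 to 18.9 CPM in non-β-cells. Cd79a had 2.89 to 3.77 CPM in β-cells and 0 to 0.996 CPM in non-β-cells.

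In the PDGF system, ligands made by endothelial and other cells act on 2 receptors: PDGFRβ is the receptor through which pericytes are recruited to vessels, and PDGFRα is carried mainly by fibroblasts and other stromal cells. The proteoglycan NG2 (Cspg4) and the G-protein regulator Rgs5 mark pericytes. Smooth muscle α-actin (Acta2), transgelin (Tagln) and desmin (Des) belong to the contractile and intermediate-filament apparatus of pericytes, smooth muscle and activated fibroblasts. Decorin (Dcn) and lumican (Lum) are small leucine-rich proteoglycans that bind collagen fibrils, and Thy1 is a surface glycoprotein of fibroblasts that neurons and T cells carry as well.

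All 10 genes were rare transcripts, and all rose in non-β-cells from 4 to 8 weeks of age, by a fitted log2 difference of 1.65 (Pdgfrb) to 5.38 (Pdgfra). Of all tested genes, 11.6% rose in the same comparison (limma-voom, adjusted p under the threshold of 0.05). Their summed level was 23.0 to 76.7 CPM in the 3 non-β-cell samples at 4 weeks and 177 to 259 CPM at 8 weeks. In β-cells the sum was 2.46 to 5.18 CPM at 4 weeks and 6.11 to 12.3 CPM at 8 weeks. In each gene the group means ran in 1 order, with the older non-β-cells highest, followed by the younger non-β-cells, the older β-cells and the younger β-cells. Samples of the older and younger non-β-cells did not overlap for any of the 10 genes. Younger non-β-cells and older β-cells overlapped for Pdgfra, Dcn, Lum and Thy1 and were apart for the other 6, and the 2 ages of β-cells were apart for Tagln and Dcn and overlapped for the other 8. How many of all tested genes separate in these ways was not counted. These and later counts of overlap therefore have no background to be read against. In bulk RNA of this kind, fewer cells of a type and less RNA per cell cannot be told apart.

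**Figure D1:**
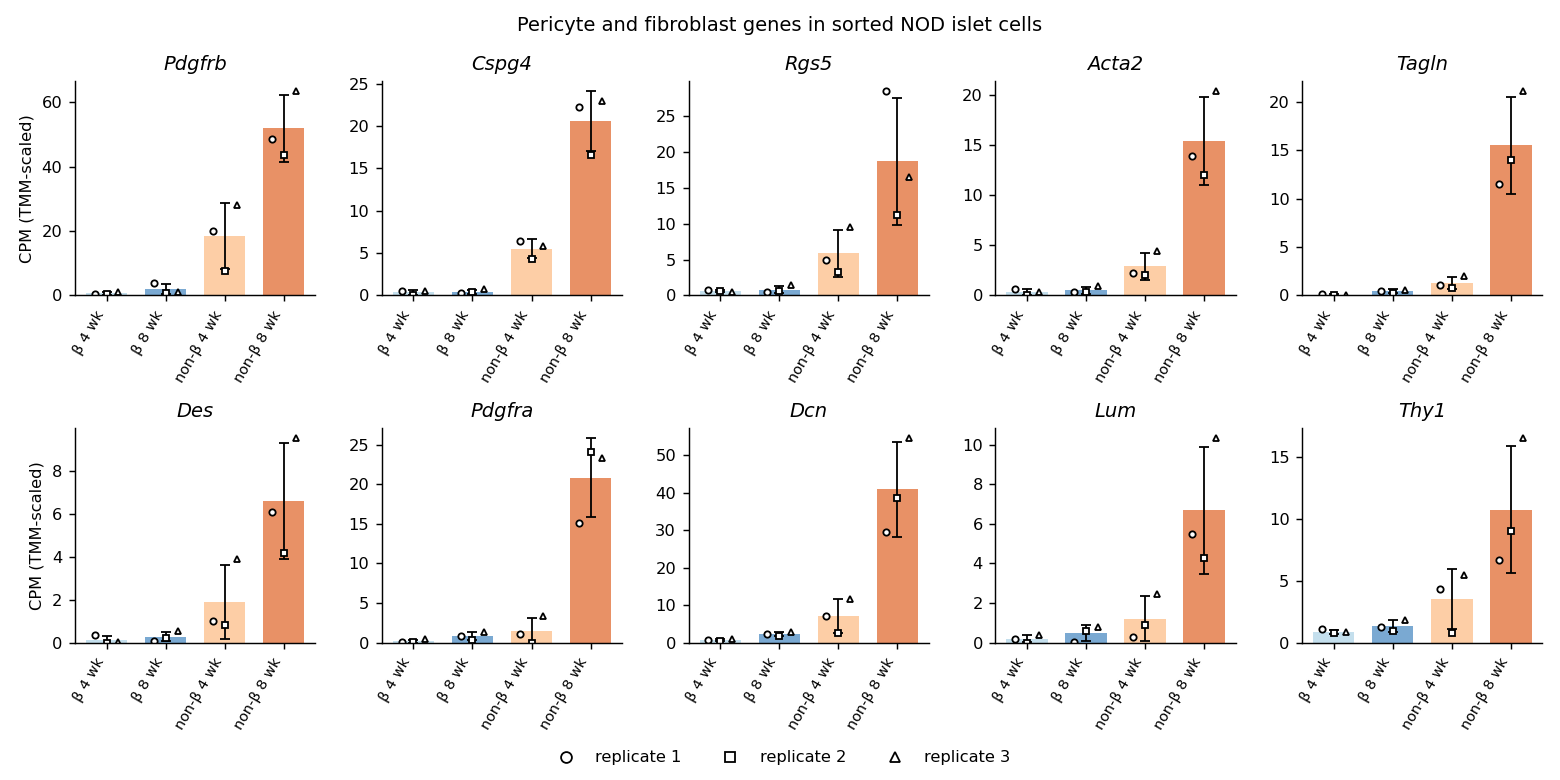
Level of each of the 10 genes in CPM after TMM scaling, by group (bars, mean of 3 replicates; whiskers, SD, cut at 0 where they would pass below it; symbols, replicates). Each vertical axis starts at 0 and has its own range. In every panel the 3 non-β-cell samples at 8 weeks lie above all other samples.

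The pericyte receptor gene Pdgfrb, on chromosome 18, measured 20.0, 7.58 and 28.0 CPM in the non-β-cell replicates 1 to 3 of 4 weeks, against 48.5, 43.6 and 63.4 CPM in those of 8 weeks. The 2 ages did not overlap, and the means were 18.5 ± 10.3 and 51.8 ± 10.3 CPM (SD, n = 3). The log2 difference was 1.65 with a 95% confidence interval of 0.93 to 2.37 (limma-voom, adjusted p = 0.00387). That call was absent with edgeR's quasi-likelihood test (adjusted p = 0.0668) and with DESeq2 (adjusted p = 0.125).

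Cspg4 (chromosome 9, 56865033 to 56899870, plus strand, GRCm38), whose product is a proteoglycan on the pericyte surface, was the most even of the 10 genes between non-β-cell replicates. At 4 weeks these had 6.46, 4.26 and 5.87 CPM, and at 8 weeks 22.2, 16.6 and 23.0 CPM. The rise was 3.76-fold (log2 difference 1.91, 95% interval 1.40 to 2.42, adjusted p = 0.000113 in limma-voom).

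Rgs5 (chromosome 1, 169655501 to 169695813, plus strand) had 4.90, 3.28 and 9.56 CPM at 4 weeks and 28.5, 11.2 and 16.6 CPM at 8 weeks in non-β-cells. The 2 ages were separated by a narrow gap, between 9.56 and 11.2 CPM. Its log2 difference was 1.80 (95% interval 0.98 to 2.62, adjusted p = 0.00519 in limma-voom). Replicate 1 was the highest sample at 8 weeks for Rgs5 alone among the 10 genes.

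Among the contractile genes, Acta2 (chromosome 19, 34241090 to 34255590, minus strand) went in non-β-cells from 2.26, 2.05 and 4.49 CPM to 13.9, 12.0 and 20.4 CPM. The ages were well apart, with a log2 difference of 2.49 (95% interval 1.75 to 3.24, adjusted p = 0.000248 in limma-voom). Tagln (chromosome 9, 45929619 to 45936058, minus strand), which encodes an actin-binding protein, rose more steeply, from 1.07, 0.783 and 1.97 CPM to 11.5, 13.97 and 21.1 CPM. Its log2 difference was 3.65 (95% interval 2.58 to 4.72, adjusted p = 0.000219 in limma-voom). The annotation places the genes Pcsk7 and Gm48529 on the strand opposite Tagln with overlapping exons, and whether the counting used strand is not stated.

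Des (chromosome 1, 75360329 to 75368579, plus strand), the intermediate filament gene of muscle and pericytes, was the least firm of the contractile genes. The non-β-cell values were 0.995, 0.832 and 3.89 CPM at the earlier age and 6.06, 4.18 and 9.51 CPM at the later. The gap between the ages was 3.89 against 4.18 CPM. The log2 difference was 2.16 (95% interval 1.03 to 3.30, adjusted p = 0.0121 in limma-voom). The call was lost with edgeR (adjusted p = 0.187), with DESeq2 (adjusted p = 0.111) and without replicate 1 or replicate 2 of non-β-cells at 4 weeks (adjusted p = 0.0810 and 0.0537 in limma-voom). An antisense gene, Gm15179, overlaps exons of Des.

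Turning to fibroblast genes, Pdgfra (chromosome 5, 75152292 to 75198215, plus strand) had the largest fitted difference and the least certain size. Non-β-cells at 4 weeks had 29, 0 and 67 counts, or 1.11, 0 and 3.30 CPM, where 0 counts allow up to 0.147 CPM in that library. At 8 weeks they had 15.1, 24.1 and 23.3 CPM. The fitted log2 difference was 5.38 (95% interval 3.02 to 7.73, adjusted p = 0.00396 in limma-voom), while the ratio of mean CPM was 14.2. Without replicate 2 at 4 weeks, the library at 0, the log2 difference was 3.44 (adjusted p = 0.000981), and edgeR and DESeq2 gave 3.82 and 3.84 with all libraries. The genes Gm42802 and Gm42803 overlap Pdgfra on the opposite strand, and the microRNA gene Mir7025 on the same strand.

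Dcn (chromosome 10, 97479609 to 97518143, plus strand) increased in non-β-cells from 7.23, 2.54 and 11.7 CPM to 29.6, 38.6 and 54.5 CPM. The lowest sample at 8 weeks exceeded the highest at 4 weeks, and the log2 difference was 2.69 (95% interval 1.87 to 3.52, adjusted p = 0.000305 in limma-voom). Its neighbour on the same chromosome, Lum (97565128 to 97572703, plus strand), was scarcer, at 0.306, 0.881 and 2.46 CPM at 4 weeks and 5.50, 4.26 and 10.3 CPM at 8 weeks. Lum rose by 2.96 on the log2 scale (95% interval 1.36 to 4.55, adjusted p = 0.0141 in limma-voom). Its call was lost with edgeR (adjusted p = 0.108) and without replicate 1 of non-β-cells at 4 weeks (adjusted p = 0.0804 in limma-voom).

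Thy1 (chromosome 9, 44043384 to 44048579, plus strand) had 4.32, 0.783 and 5.47 CPM at 4 weeks and 6.71, 9.04 and 16.5 CPM at 8 weeks in non-β-cells. The ages were only just apart, at 5.47 against 6.71 CPM. With a log2 difference of 1.83 (95% interval 0.66 to 3.00, adjusted p = 0.0344 in limma-voom), it was the weakest call of the 10. It was lost with edgeR (adjusted p = 0.0812) and in limma-voom without non-β-cell replicate 1 at 4 weeks, replicate 2 at 4 weeks, replicate 2 at 8 weeks or replicate 3 at 8 weeks (adjusted p = 0.0568, 0.0986, 0.0573 and 0.103). The T-cell genes Cd3e and Cd3d were below the filter, as was Ptprc. In non-β-cells Ptprc had 15, 0 and 16 counts at 4 weeks and 3, 0 and 0 at 8 weeks. Cd3e had 0 counts in each 4-week sample and 1, 0 and 13 at 8 weeks, and Cd3d 1, 2 and 8, then 21, 1 and 1. Of 10 leukocyte markers 2 were tested, and 1 of these rose in non-β-cells. The part of leukocytes in the Thy1 values was not tested.

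The median log2 difference of the 10 genes was 2.33 and that of all tested genes 0.01. With edgeR the count of genes that rose was 6 of 10 and with DESeq2 8 of 10, and leaving out single libraries gave 7 to 10 in limma-voom.

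**Figure D2:**
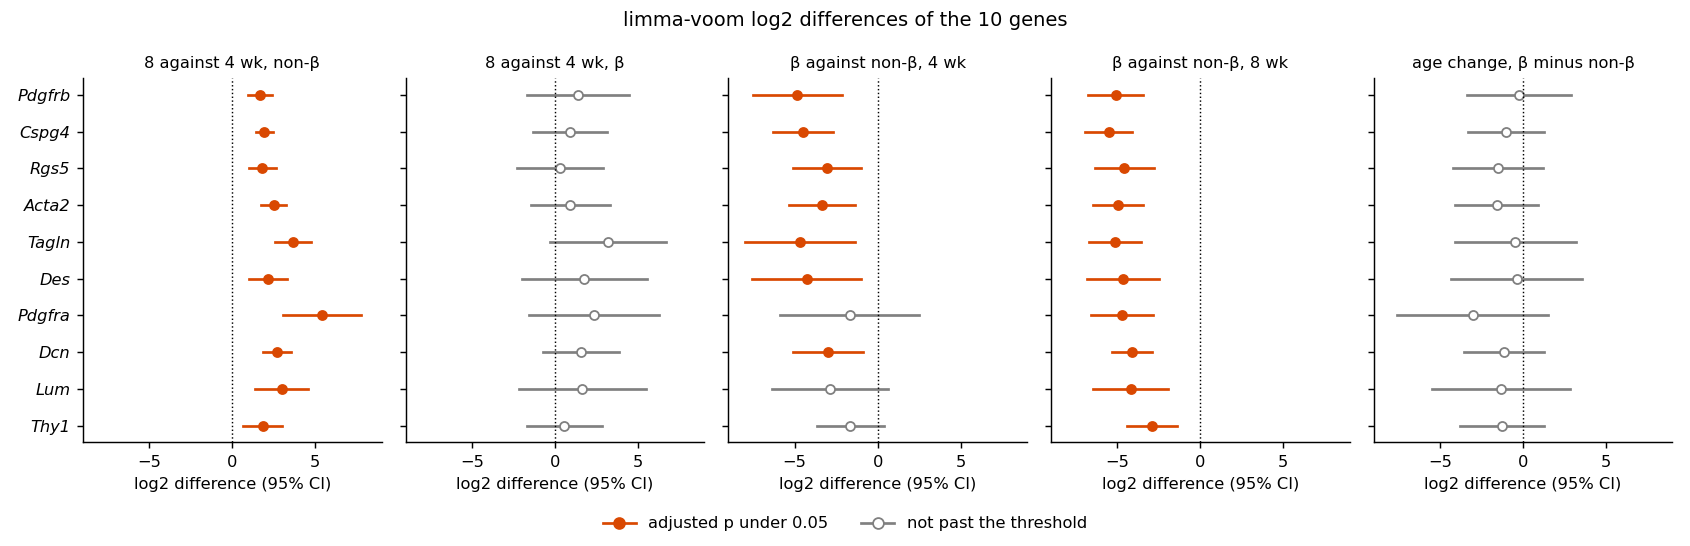
log2 differences (points) with 95% confidence intervals (lines) of the 10 genes in 5 comparisons from limma-voom. Filled orange points passed an adjusted p of 0.05 and open grey points did not. All 10 genes passed for age in non-β-cells and for fraction at 8 weeks, 7 passed for fraction at 4 weeks, and none passed for age in β-cells or for the difference between the age changes.

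The genes did not keep a fixed proportion to one another. For a comparison by role, levels were summed over Pdgfrb, Cspg4 and Rgs5 as pericyte genes, over Pdgfra, Dcn and Lum as fibroblast genes, and over Acta2, Tagln and Des as contractile genes. In non-β-cells at 4 weeks, pericyte genes summed to 31.3, 15.1 and 43.4 CPM and fibroblast genes to 8.64, 3.42 and 17.5 CPM, a ratio of 3.62, 4.41 and 2.49 in replicates 1 to 3. At 8 weeks the sums were 99.3, 71.3 and 103 CPM against 50.1, 66.9 and 88.2 CPM, and the ratio was 1.98, 1.07 and 1.17. The ratio was thus lower in every 8-week sample than in every 4-week sample, and it was not tested because the genes were chosen with results of these data known. By group mean at 4 and 8 weeks, Pdgfrb was the largest part of the pericyte sum (18.5 and 51.8 CPM). Dcn was the largest part of the fibroblast sum (7.15 and 40.9 CPM). The ratio therefore follows these 2 genes most, and it is not a ratio of cells.

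In non-β-cells, replicates of a group differed together for most of the genes, and such orders were not counted over all tested genes. Among non-β-cells at 4 weeks, replicate 3 was the highest sample for 9 of 10 genes and replicate 2 the lowest for 9 of 10. Cspg4 and Lum were the respective exceptions, with the highest and the lowest value in replicate 1. Among non-β-cells at 8 weeks, replicate 3 was highest for 8 genes, with Rgs5 highest in replicate 1 and Pdgfra in replicate 2. The lowest sample there was replicate 2 for 6 genes and replicate 1 for 4. Among β-cells at 4 weeks, replicate 1 was highest for 6 genes and replicate 3 for 4, and at 8 weeks replicate 3 was highest for 9. Rgs5 relative to Dcn was 0.965 in replicate 1 at 8 weeks and 0.290 and 0.304 in replicates 2 and 3. At 4 weeks this ratio was 0.677, 1.29 and 0.819 in non-β-cells, so for these 2 genes alone the ages overlapped.

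Endothelial genes moved with these genes. The 10 endothelial markers examined, among them the adhesion molecule gene Pecam1 and the VEGF receptor genes Kdr and Flt1, all rose in non-β-cells (median log2 difference 3.31). In the same comparison and in those below for other cell types, 11.6% of all tested genes rose. The summed level of the 10 endothelial markers was 59.1, 50.8 and 97.5 CPM at 4 weeks and 1084, 400 and 590 CPM at 8 weeks, so that replicate 1 was highest at 8 weeks, as for Rgs5. Pecam1 rose by 3.09 on the log2 scale (adjusted p = 8.87e-05 in limma-voom). Other cell-type lists rose in part. Of 6 acinar markers 3 rose, with a sum of 34.1 to 83.9 CPM at 4 weeks. At 8 weeks the acinar sum was 643, 222 and 181 CPM in replicates 1 to 3, so it too was highest in replicate 1. Of 6 duct markers 5 rose, with sums of 581 to 777 CPM at 4 weeks and 1947 to 2174 CPM at 8 weeks. So did 2 of 5 tested Schwann cell, 2 of 5 β-cell, 1 of 3 δ-cell and 1 of 2 tested leukocyte markers, while among 5 α-cell markers none rose and 1 fell. The part of these cell types in the results was not tested.

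**Figure D3:**
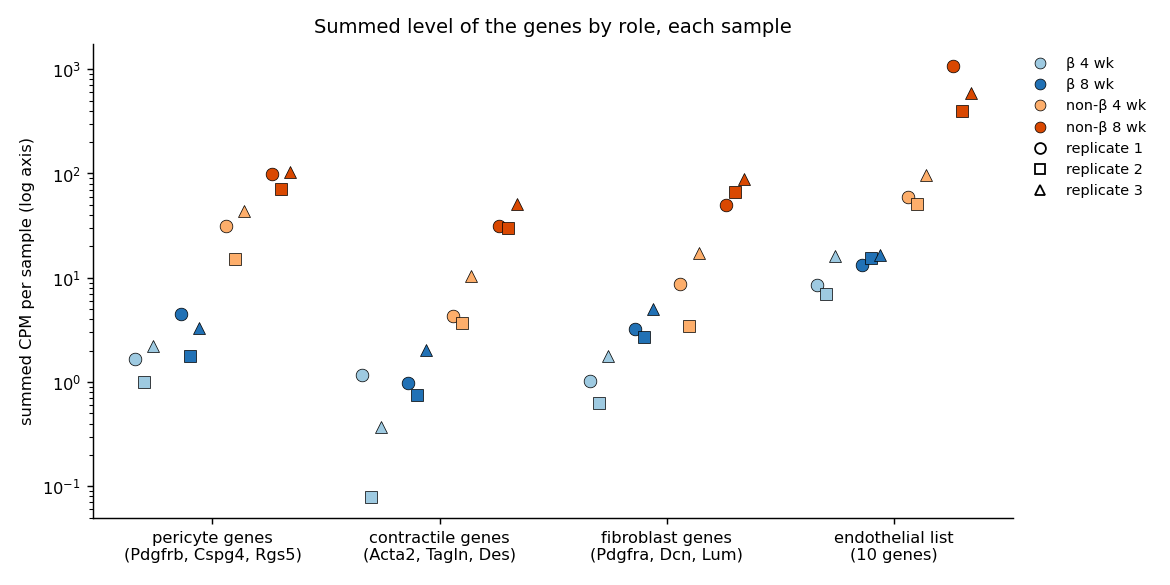
Summed CPM per sample (log axis) of the pericyte, contractile and fibroblast genes named under each column and of 10 endothelial markers. Colours give the group and symbols the replicate. Within non-β-cells at 8 weeks, replicate 3 has the highest sum in the 3 mesenchymal columns and replicate 1 in the endothelial column.

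In levels divided by the length of the longest coding transcript, Dcn was the most abundant of the 10 transcripts in non-β-cells at 8 weeks, at 23.3 ± 7.18 CPM per kb (SD, n = 3). Tagln, Pdgfrb, Acta2 and Thy1 followed at 9.74 ± 3.13, 9.55 ± 1.90, 7.59 ± 2.16 and 6.20 ± 2.96 CPM per kb, which overlapped between samples. Rgs5 had 4.58 ± 2.16, Pdgfra 3.05 ± 0.73, Lum 2.73 ± 1.31, Cspg4 2.54 ± 0.43 and Des 2.17 ± 0.89 CPM per kb. Dcn also came first with the median transcript length, whereas Thy1, whose transcripts differ widely in length, moved from rank 5 to rank 2.

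β-cells held little of any of these transcripts. At 8 weeks all 10 genes were lower in the β-cell fraction, by 2.93 (Thy1) to 5.53 (Cspg4) on the log2 scale, and samples of the 2 fractions did not overlap for any of them. Over all tested genes, 25.6% were lower in β-cells at that age. Cspg4 had 0.278, 0.377 and 0.722 CPM in β-cells and lay 46.2-fold below its fitted non-β-cell level (adjusted p = 1.55e-05 in limma-voom). Pdgfrb had 3.75, 0.829 and 1.20 CPM in β-cells (log2 difference -5.11, adjusted p = 0.000109), and Dcn 2.36, 1.70 and 2.89 CPM (log2 difference -4.12, adjusted p = 4.34e-05). All 10 calls at 8 weeks held in each of the 22 alternatives counted. The median log2 difference of the 10 genes was -4.70, and that of the 5 α-cell markers was -4.69 (from -7.20 to -4.45). It was -4.06 for 3 δ-cell markers and -7.34 for the 10 endothelial markers. The medians at 4 weeks were -3.22, -4.09, -3.69 and -4.25 in the same order.

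At 4 weeks the same comparison gave 7 of 10 genes lower in β-cells, against 23.7% of all tested genes. The 3 genes that did not pass were Pdgfra (log2 difference -1.68, 95% interval -5.86 to 2.49, adjusted p = 0.492), Lum (-2.89, interval -6.39 to 0.61, adjusted p = 0.157) and Thy1 (-1.66, interval -3.68 to 0.36, adjusted p = 0.158). In these 3, the samples of the fractions overlapped, and in the other 7 they did not. The calls that held whichever single library was left out were those of Pdgfrb (log2 difference -4.85, adjusted p = 0.00601), Cspg4 (-4.50, adjusted p = 0.000734) and Acta2 (-3.37, adjusted p = 0.00909).

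The count at 4 weeks rested on few reads. β-cell samples at 4 weeks had 0 to 25 counts for these genes, and 4 of the 30 values were 0, which allow up to 0.119 CPM in replicate 2 and 0.138 CPM in replicate 3. Tagln had 4, 0 and 0 counts there, so its fitted log2 difference (-4.67) depends on the small offset that limma-voom adds to counts before the log. Without β-cell replicate 2, without β-cell replicate 3, or without both 4-week samples numbered 3, the count was 3 of 10, because the calls of Rgs5, Tagln, Des and Dcn were lost (adjusted p of 0.0566 to 0.115 in limma-voom). The Dcn call was also lost without β-cell replicate 1 (adjusted p = 0.0611), and that of Des without non-β-cell replicate 1 at 8 weeks (adjusted p = 0.0509). In the other direction, edgeR called 9 and DESeq2 all 10. Omission of non-β-cell replicate 2 at 4 weeks, the library with 0 counts for Pdgfra, gave 9, with Pdgfra at -3.58 (adjusted p = 0.0355) and Thy1 at -2.44 (adjusted p = 0.0111).

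From 4 to 8 weeks in β-cells, none of the 10 genes passed the test, against 17.9% of all tested genes that changed in either direction. At an unadjusted p under 0.05 the counts were 0 in limma-voom, 3 in edgeR and 3 in DESeq2, and after adjustment 0 in limma-voom, 0 in edgeR and 2 in DESeq2. Those 2 were Tagln (log2 difference 2.85, adjusted p = 0.00884 in DESeq2) and Dcn (1.58, adjusted p = 0.00818 in DESeq2). They were also the only 2 of the 10 whose β-cell samples did not overlap between ages. Dcn had 0.763, 0.555 and 1.009 CPM at 4 weeks and 2.36, 1.70 and 2.89 CPM at 8 weeks, and Tagln 0.204, 0 and 0 CPM against 0.509, 0.226 and 0.602 CPM. In limma-voom all 10 estimates were above 0, from 0.28 (Rgs5) to 3.18 (Tagln), with intervals that reached down to -2.31 and up to 6.67. Changes within those intervals were not resolved by this test. Markers of other cell types moved in the same β-cell samples. Of 6 acinar markers 5 rose, with a sum of 85.3 to 160 CPM at 4 weeks and 386 to 807 CPM at 8 weeks, and 2 of 6 duct markers rose, with 833 to 1166 and 1655 to 1779 CPM. Of 5 β-cell markers 4 rose, while all 5 α-cell markers fell, from 5619 to 9401 CPM in sum to 1517 to 2570 CPM. None of the 10 endothelial markers passed, with sums of 7.02 to 16.3 and 13.3 to 16.5 CPM. The part of these cell types in the values was not tested.

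Whether the age change differed between fractions was tested as an interaction, in which the non-β-cell change is subtracted from the β-cell change. None of the 10 genes passed, against 5.13% of all tested genes. The number at an unadjusted p under 0.05 was 0 in limma-voom, 0 in edgeR and 2 in DESeq2, and none passed after adjustment in any of the 3. Estimates ran from -3.04 (Pdgfra, 95% interval -7.61 to 1.52, adjusted p = 0.486) to -0.26 (Pdgfrb, interval -3.40 to 2.87, adjusted p = 0.952). A rise in non-β-cells that passed the test and one in β-cells that did not are thus not shown to differ for these genes. The comparisons share groups of samples and are not independent of each other.

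Lists of related genes were read in the same fits. Of the 4 PDGF ligand genes, Pdgfb, the ligand of PDGFRβ made by endothelium, rose in non-β-cells from 4.86, 4.94 and 8.68 CPM to 55.1, 36.3 and 35.1 CPM (log2 difference 2.84, adjusted p = 8.78e-06 in limma-voom). Replicate 1 was highest at 8 weeks, as for Rgs5, the endothelial sum and the acinar sum, whereas Pdgfrb and Cspg4 were highest in replicate 3. Pdgfb was also present in β-cells, at 21.0 to 23.3 CPM at 4 weeks and 40.0 to 45.5 CPM at 8 weeks, and rose there by 0.97 (adjusted p = 0.00262). Pdgfa fell by 0.49 in non-β-cells (adjusted p = 0.0296), a call that was lost without any 1 of 4 non-β-cell libraries: replicates 2 and 3 at each age (adjusted p up to 0.143). Pdgfc and Pdgfd did not pass for age (0.46 and 1.22, adjusted p = 0.295 and 0.106) and were low in β-cells at both ages.

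Of the 10 genes on the TGF-β list, a pathway that induces matrix and contractile genes in fibroblasts, 7 rose in non-β-cells, none fell and 3 did not pass. The share of all tested genes that rose was 11.6%. Ltbp2, which encodes a latent TGF-β-binding protein, rose from 5.28, 2.94 and 7.15 CPM to 92.0, 77.6 and 71.8 CPM (log2 difference 4.05, adjusted p = 9.84e-07 in limma-voom). Ctgf, a matricellular protein gene induced by TGF-β, rose by 3.04 and Ltbp1 by 2.96 (adjusted p = 2.71e-05 and 1.30e-05). The ligand gene Tgfb1 rose by 2.11 (adjusted p = 0.000142), whereas Tgfb2 had 0.35, with an adjusted p of 0.375. Several of these genes are expressed by endothelial and epithelial cells too.

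Other mural genes, those of pericytes and vascular smooth muscle, rose as well. Of 10 on the list, 7 were tested and all 7 rose in non-β-cells (median log2 difference 2.12), against 11.6% of all tested genes. Higd1b, Tbx18 and Nkx3-2 were below the filter. Notch3, the Notch receptor of mural cells, had 2.41, 0.881 and 2.32 CPM at 4 weeks and 6.93, 4.11 and 8.53 CPM at 8 weeks (log2 difference 1.89, adjusted p = 0.0125). Vtn, Mcam and Kcnj8 rose by 3.91, 2.60 and 2.18 (adjusted p = 0.0129, 0.000192 and 0.00388 in limma-voom). Vtn exceeded 1 CPM only in the 3 non-β-cell samples at 8 weeks. It entered the test and the count of 7 through those samples alone. Mcam, which endothelium also expresses, was highest in replicate 1 at 8 weeks, at 79.9 CPM against 33.8 and 48.7.

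Other contractile genes were less uniform than Acta2 and Tagln. Of 12 on the list, 8 were tested, and 4 of these rose in non-β-cells (median log2 difference 0.64), against 11.6% of all tested genes. Tpm2, Smtn and Cald1 rose by 2.34, 1.28 and 0.75 (adjusted p = 0.00398, 0.000165 and 0.000472 in limma-voom), and Tpm1 by 0.41 (adjusted p = 0.0211). Myh11, the myosin heavy chain of mature smooth muscle, had 3.14, 0.636 and 1.92 CPM at 4 weeks and 2.34, 1.49 and 2.88 CPM at 8 weeks, and the ages overlapped (log2 difference 0.43, 95% interval -0.75 to 1.62, adjusted p = 0.665). Cnn1, Lmod1, Actg2 and Myocd were below the filter. Srf, the transcription factor that binds CArG boxes, had 225, 267 and 201 CPM at 4 weeks and 287, 255 and 270 CPM at 8 weeks (log2 difference 0.24, adjusted p = 0.172).

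Fibroblast and matrix genes followed Dcn. Of 21 on the list, 18 were tested and 13 rose in non-β-cells, with none lower (median log2 difference 2.07), against 11.6% of all tested genes that rose. Col1a1, the α1 chain of type I collagen, rose from 47.2, 28.2 and 97.6 CPM to 245, 335 and 378 CPM (log2 difference 2.63, adjusted p = 0.000166 in limma-voom). Lox, the collagen cross-linking oxidase, rose by 3.99, Fbln2 by 3.21 and Fbn1 by 2.75 (adjusted p = 4.47e-05, 4.74e-06 and 6.65e-05). Fbln1, Pi16, Postn, Dpt and Pdpn did not pass, with log2 differences from -0.04 (Fbln1) to 1.64 (Postn). Of the 6 further small leucine-rich proteoglycans, Bgn, Fmod and Prelp were tested and rose, by 2.33, 4.17 and 2.73 (adjusted p = 7.87e-05, 0.00815 and 0.0174). Fmod exceeded 1 CPM only in the 3 non-β-cell samples at 8 weeks (1.39, 1.49 and 1.34 CPM). It entered the test through those samples alone. The calls of Fmod and Prelp were lost with edgeR (adjusted p = 0.0755 and 0.148) and DESeq2 (0.0576 and 0.0743), and that of Prelp without non-β-cell replicate 1 or 2 at 4 weeks (adjusted p = 0.0862 and 0.0604).

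Between fractions, the β-cell level was the lower one at 8 weeks for 7 of 7 tested mural genes, 8 of 8 contractile genes, 17 of 18 fibroblast and matrix genes, 3 of 3 proteoglycans, 8 of 10 TGF-β genes and 2 of 4 PDGF ligand genes, against 25.6% of all tested genes, and none passed in the other direction. These counts include Vtn and Fmod, which passed the filter only through non-β-cells at 8 weeks. At 4 weeks the numbers lower in β-cells were 3 of 7, 6 of 8, 15 of 18, 1 of 3, 6 of 10 and 2 of 4, against 23.7%. Of these lists 2 genes were higher in β-cells at 4 weeks, namely Pdgfb by 1.91 and the TGF-β receptor gene Tgfbr1 by 0.71 on the log2 scale (adjusted p = 7.04e-05 and 0.0101 in limma-voom).

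Within β-cells, 9 of the 50 tested genes of these 6 lists changed with age, which is 18%, beside 17.9% of all tested genes. Pdgfb rose, as given above. Tgfb3, a TGF-β ligand gene, rose from 0.254, 0.317 and 0.963 CPM to 3.19, 1.77 and 2.41 CPM (log2 difference 2.38, adjusted p = 0.0136 in limma-voom), a call lost without β-cell replicate 1 or 2 at 4 weeks (adjusted p = 0.0570 and 0.0710). Anpep, an aminopeptidase gene of the mural list, rose by 0.78 and the co-receptor gene Tgfbr3 fell by 0.60 (adjusted p = 0.0289 and 0.0465). The receptor gene Tgfbr2 fell by 1.12 (adjusted p = 0.0350). The calls of these 3 genes were lost without the filter on low counts and without any 1 of 5 β-cell libraries, those other than replicate 2 at 8 weeks for Anpep and replicate 3 at 4 weeks for Tgfbr2 and Tgfbr3 (adjusted p up to 0.108, 0.139 and 0.150). That of Tgfbr3 was also lost with total counts as the only scaling and without any 1 of 4 non-β-cell libraries, replicates 1 and 2 at 4 weeks and 2 and 3 at 8 weeks. Col1a2 rose by 2.06 on the log2 scale (adjusted p = 0.0422 in limma-voom), from 2.24, 1.11 and 3.12 CPM to 6.52, 6.93 and 11.3 CPM, with no overlap. That call was lost without the filter on low counts (adjusted p = 0.0798) and in 8 of the 12 fits that leave out 1 library, those without any 1 of the 6 β-cell libraries among them (adjusted p up to 0.159). Smtn, Tpm1 and Srf fell in β-cells by 1.02, 0.47 and 0.38 (adjusted p = 0.0215, 0.0144 and 0.0382). The Smtn call was lost without β-cell replicate 3 at 4 weeks, replicates 1 or 2 at 8 weeks, or both 4-week samples numbered 3 (adjusted p up to 0.0911), and that of Tpm1 without β-cell replicate 2 at 8 weeks (adjusted p = 0.0654). That of Srf was lost without any 1 β-cell library other than replicate 3 at 4 weeks, without non-β-cell replicate 3 at 8 weeks and without the filter (adjusted p up to 0.106).

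**Figure D4:**
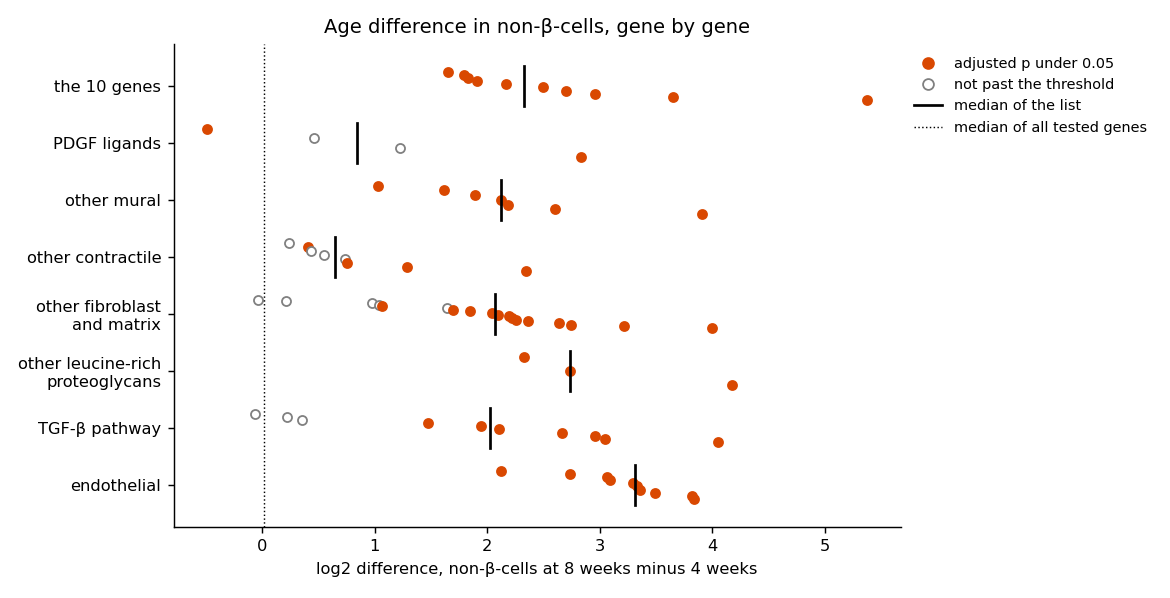
log2 difference between 8 and 4 weeks in non-β-cells for each tested gene of 8 lists (points; filled orange where the adjusted p was under 0.05), with the median of each list (solid bar) and of all tested genes (dotted line). The median is 2.33 for the 10 genes, 2.12 for other mural genes, 0.64 for other contractile genes, 2.07 for other fibroblast and matrix genes and 3.31 for endothelial genes.

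The genes whose pattern over the 12 samples was most like the mean pattern of the 10 were sought among all other tested genes, by the mean absolute difference of centred log2 CPM. The nearest were Aebp1 (0.301), Col6a3 (0.333), Serpinf1 (0.342), Aldh1a3 (0.354) and Cyp1b1 (0.356), all in log2 units over 12 samples. Aebp1, a collagen-associated secreted protein gene, had means of 0.972 and 3.17 CPM in the younger and older β-cells and 14.2 and 56.5 CPM in the younger and older non-β-cells. Col6a3, a chain of type VI collagen, had 3.22, 9.98, 38.2 and 167 CPM in the same order. By the same measure Dcn (0.251) and Acta2 (0.252) lay closest to the mean pattern and Pdgfra (0.915) farthest. The mean includes these genes themselves.

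RefSeq promoter sequences were held for 5 of the 10 genes (Pdgfra, Rgs5, Cspg4, Acta2 and Des). One is shown for each role, since these genes rose in the same samples. Each runs 5′ to 3′ on the strand of the gene, from 250 bases before to 50 bases after the RefSeq start (GRCm38.p6), with motif matches in capitals.
Acta2 (contractile, chr19:34255324-34255623, minus strand): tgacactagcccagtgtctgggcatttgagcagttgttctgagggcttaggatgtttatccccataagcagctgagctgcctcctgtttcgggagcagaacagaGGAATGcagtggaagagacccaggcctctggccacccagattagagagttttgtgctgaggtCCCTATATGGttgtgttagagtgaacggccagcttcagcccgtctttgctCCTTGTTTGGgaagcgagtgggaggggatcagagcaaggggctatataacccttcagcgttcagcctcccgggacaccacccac
Rgs5 (pericyte, chr1:169655251-169655550, plus strand): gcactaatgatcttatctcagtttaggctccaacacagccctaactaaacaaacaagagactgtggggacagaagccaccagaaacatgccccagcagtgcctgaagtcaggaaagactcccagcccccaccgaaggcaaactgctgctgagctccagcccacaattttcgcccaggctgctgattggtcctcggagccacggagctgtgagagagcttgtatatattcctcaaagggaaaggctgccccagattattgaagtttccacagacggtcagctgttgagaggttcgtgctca
Pdgfra (fibroblast, chr5:75152001-75152300, plus strand): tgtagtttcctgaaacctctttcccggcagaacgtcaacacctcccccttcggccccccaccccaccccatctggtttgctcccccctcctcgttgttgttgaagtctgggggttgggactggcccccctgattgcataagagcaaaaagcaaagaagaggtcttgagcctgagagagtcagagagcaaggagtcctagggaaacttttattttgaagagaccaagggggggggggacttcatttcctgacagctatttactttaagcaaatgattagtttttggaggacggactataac

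The windows were searched on both strands for the CArG box bound by Srf, for TATAAA, and for CATTCC, the core bound by TEAD factors. The strict CArG box, TATAAA and CATTCC occurred in 1.63%, 13.6% and 14.7% of 32851 mouse promoters of the same length. Acta2 had CATTCC on the opposite strand, at -146 from the start, printed as GGAATG. It also had 2 matches to a CArG box with a single C or G allowed inside, CCCTATATGG at -84 and CCTTGTTTGG at -34, a pattern found in 8.5% of promoters. That relaxed pattern was chosen after the sequence had been seen. The windows of the other 4 genes held none of the 4 patterns, and a match is a description of the letters only.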

How the data were processed

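RNA from 12 samples was sequenced as 100-base single-end reads from libraries of total RNA made with a stranded kit for small inputs. The methods state that the authors trimmed reads with fastp (Phred quality of at least 15), assigned them to Ensembl release 98 transcripts with kallisto (build GRCm38 in the submitters' processing notes) and summed them to genes with tximport. Software versions and the strand setting are not given in the sources used here. The authors deposited these estimated counts per gene, unscaled and unfiltered, for all 12 samples, and kallisto divides reads among similar transcripts. All columns were matched to labelled samples.

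Estimated counts were rounded. Following the study's methods, genes above 1 CPM in at least 3 samples were kept, scaled by TMM (edgeR 4.0.16) and tested in R 4.3.3 by limma-voom (limma 3.58.1) on 4 group means without covariates, two-sided, with Benjamini-Hochberg adjustment over all 15598 tested genes and 0.05 as the threshold. The 5 comparisons were fraction at each age, age in each fraction and their interaction. Printed CPM values are TMM-scaled, and intervals of differences are at 95%. A prior count of 2 went into the log2 CPM used for the nearest genes and for correlations between samples, and not into the limma-voom fits. A count of 0 was given an upper limit of 3 counts, which covers counting error only. The fit was tested on simulated counts.

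Replicate numbers come from the sample descriptions. Correlations across genes of same-numbered samples' deviations from their group means did not exceed 0.1 in every pair, so samples were not treated as paired. Alternatives were DESeq2 1.42.0 (its test, or its size factors), edgeR's quasi-likelihood test, total-count scaling, removal of hormone and mitochondrial genes, no filter or 10 counts in 3 samples, sample quality weights, a replicate block, a 2-fold threshold, and omission of each sample and of both 4-week samples numbered 3.

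Named genes were all 10 members, and from 14 other lists the first marker and up to 3 genes per comparison with the largest differences past the threshold. Listed genes given as below the filter or not past the threshold, and Tpm1, Srf and Tgfb2 for age in non-β-cells and Tgfbr1 at 4 weeks, fall outside that rule and were named after their values were seen. Single values of 2 listed genes are not reported here. The genes and lists were chosen with earlier results of these data known. Gene coordinates and lengths are from GENCODE M21 (GRCm38, counted from 1).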

Additional observations from a re-analysis of the deposited data

Results flagged for a closer look

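The interaction test of limma-voom, passed by none of the 10 genes, was passed by 8 of the 50 tested genes of the 6 related lists. That is 16%, beside 5.13% of all tested genes. Of these genes, 7 are reported here. The interaction value subtracts the non-β-cell log2 age change from the β-cell one. Among contractile genes, Smtn differed by -2.31 (adjusted p = 0.00111), having fallen by 1.02 in β-cells and risen by 1.28 in non-β-cells. Tpm1 differed by -0.88 (adjusted p = 0.00628), with a fall of 0.47 against a rise of 0.41. Srf differed by -0.62 (adjusted p = 0.0423), a call lost with total counts as the only scaling (adjusted p = 0.0676) and without any 1 library other than β-cell replicate 3 or non-β-cell replicate 2 at 4 weeks (adjusted p up to 0.113). The other 6 calls held in all 22 alternatives counted. Those do not include the 2-fold threshold, which the Tpm1 difference, at 1.84-fold, does not reach. Mcam, a mural and endothelial gene, differed by -2.95 (adjusted p = 0.0164), with estimates of -0.35 for the β- and 2.60 for the non-β-cell fraction. The ligand gene Pdgfb rose in both fractions, by 0.97 and 2.84, and differed by -1.87 (adjusted p = 0.00372). Of the TGF-β list, Ltbp2 differed by -3.75 (adjusted p = 0.000248) and Tgfbr2 by -3.07 (adjusted p = 0.00111). Tgfbr2 fell by 1.12 in β-cells, a call lost in 6 of 22 alternatives (adjusted p up to 0.139), and rose by 1.94 in non-β-cells, while Ltbp2 had an estimate of 0.30 in β-cells that did not pass. Groups of 3 samples are too small for a search for outlying samples.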

How the results depend on the processing

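Across 22 alternatives, the 10 genes kept their direction and their side of the threshold in all 220 values for fraction at 8 weeks and in 207 for age in non-β-cells (13 lost the call). The numbers were 196 for fraction at 4 weeks (14 lost and 10 gained the call), 216 for age in β-cells and 211 for the interaction. The count at 4 weeks, 7, was 3 with both 4-week samples numbered 3 left out and 3 to 9 with single samples left out. The count for age in non-β-cells, 10, was 6 with edgeR, and that for age in β-cells, 0, was 2 with DESeq2. The cause was not tested. Estimates that changed sign were not past the threshold in either direction. For the interaction of Pdgfrb (-0.26) they were 0.082 with edgeR, 0.089 with DESeq2 and 0.23 with sample quality weights, and -0.84 to 0.26 with single samples left out. Leaving out single samples also gave -1.07 to 0.65 for the interaction of Tagln, -1.51 to 0.60 for that of Des, and -0.20 to 0.50 and -0.32 to 1.42 for age in β-cells of Rgs5 and Cspg4. With a replicate block the count at 4 weeks was 10 and no other count changed. The age calls of Pdgfa in non-β-cells and Srf in β-cells were lost with it (adjusted p = 0.0503 and 0.0618). Same-numbered samples correlated at 0.08 to 0.31 between fractions at 4 weeks, 0.01 to 0.05 at 8 weeks, -0.0046 to 0.12 between ages in non-β-cells and -0.0063 to 0.034 in β-cells, and 4, 5, 4 and 3 of 6 samples, in that order, correlated best with their own number. No scaling moved the median of all genes by over 0.1. The β-cell values rest on 0 to 81 counts per gene and sample.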
